A study of Mus musculus with 5 samples.

Results

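The 6 genes described here are the NR4A nuclear receptors Nr4a1, Nr4a2 and Nr4a3 and the zinc-finger factors Egr1, Egr2 and Egr3. They were chosen by symbol, and all 6 were found among the 27726 genes common to the 5 deposited count matrices. NR4A and EGR genes are early response genes: they are transcribed soon after a receptor on the cell is engaged, without the need for new protein, and their transcripts are short-lived. NR4A proteins bind DNA without a known natural hormone and in lymphocytes are known as markers of recent receptor signalling and as restraints on effector functions. EGR proteins are induced through the MAP kinase pathway, and Egr2 and Egr3 are known for limiting the response of activated lymphocytes.

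Type 2 innate lymphoid cells (ILC2s) were sorted from lungs of WT C57BL/6 mice, females a few weeks old, as lineage-negative cells with ST2, CD127, Thy1.2 and CD45 on their surface, and single-cell RNA was measured on the 10x Genomics 3' platform. The naïve library came from mice with no tumour and no activation. The 4 tumour-associated (ta) libraries came from mice that carried subcutaneous tumours of TC1, a transformed lung epithelial line: ta-non-activated ILC2s were freshly isolated in week 2 and in week 3 after implantation, and ta-activated ILC2s of the same weeks were first kept ex vivo for a week with IL-2, IL-33 and TSLP. Cells of several mice were pooled in each library, so each combination of state and week is 1 library, and differences between single libraries have no replicate check. The question asked of the data was whether the week 2 ta-non-activated library, labelled as freshly isolated, carried the transcripts of recent stimulation.

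After filtering for at least 200 genes and under 5% mitochondrial counts, 16530 of 18628 barcodes were kept, with 1601 to 6389 cells a library and 9394957 to 61830293 UMIs (unique molecular identifiers, 1 per captured transcript). Median UMIs per cell were 4517 in the naïve library, 4396 in the week 3 ta-non-activated library and 12296.5 to 16090 in the other 3. The single-cell comparisons of members and cytokines therefore use cells thinned to 2000 UMIs each. Shares of cells with markers, and counts out of all kept cells of a library, are without thinning and so also depend on depth. Any pair of libraries shared 1 to 11 barcodes. At least 2 of 12 ILC2 markers were found in 98.2% to 99.6% of cells, none was at 0 in any library, and their summed level was lowest in week 2 ta-non-activated cells (1683 CPM, against 2221 to 8841 CPM). The week 3 ta-non-activated library stood apart: 49.7% of its cells carried at least 2 of 8 T cell or thymocyte markers, against 0.759% to 6.20% in the other libraries, and these markers summed to 1214 CPM (UMIs of a gene per 1000000 UMIs of the library) against 5.03 to 105 CPM. None of the 8 was at 0 there, and 2 or 3 were at 0 in the other libraries. This library still passed the check of at least 2 ILC2 markers at 98.2%, so that check does not tell ILC2s from T cells or thymocytes. Its 795 cells with at least 2 T cell or thymocyte markers held 1.83 CPM of the ILC2 marker Il1rl1. Its cells with fewer than 2 markers of any other type held 283 CPM. Member and cytokine levels, their ratios, most list counts and some per-cell values of this library are therefore also given over a subset. This subset is its 757 cells with fewer than 2 markers of any other cell type. Levels of single genes of the lists and correlations between libraries are over all its kept cells only. The week 2 ta-non-activated library was nearest to the cultured libraries. Over the 11503 genes tested (mean of at least 1 CPM over the libraries), its Spearman correlation was 0.898 with week 2 ta-activated, 0.891 with week 3 ta-activated, 0.841 with week 3 ta-non-activated and 0.718 with naïve cells, as a description across genes. The naïve library was the farthest from the rest, at 0.718 to 0.750 with every other library. Week 3 ta-non-activated cells had 0.810 and 0.797 with the week 2 and week 3 ta-activated libraries. All of these values are over all kept cells, those with T cell or thymocyte markers included. The week 2 ta-non-activated library is called freshly isolated here because its label says so, and no value in these data settles whether the label is right.

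By GENCODE M21 on GRCm38, 5 of the genes lie at chr15:101254269-101274795 (Nr4a1, plus strand), chr2:57106830-57124003 (Nr4a2, minus), chr4:48045153-48086447 (Nr4a3, plus), chr10:67535475-67542188 (Egr2, plus) and chr14:70077203-70082614 (Egr3, plus). None of them overlaps another annotated gene. Of the 6 members, 5 were highest in the naïve and next highest in week 3 ta-non-activated cells. Promoter windows in RefSeq (GRCm38.p6), the 250 bases before each transcript start, were searched for 4 of the 6 genes. Egr1 and Egr3 are not among these 4, and Egr2, which is, did not share this order of libraries. The windows printed are chr15:101266596-101266845 (Nr4a1, before a start inside the GENCODE gene), chr2:57124004-57124253 (Nr4a2), chr4:48045055-48045304 (Nr4a3) and chr10:67537619-67537868 (Egr2, the third of 5 listed windows, also inside the gene). Capitals mark the half-site TGACG of the cyclic AMP response element (CRE) on either strand, where CREB family factors can bind, and in Egr2 also the CArG box of serum response factor.
Nr4a1: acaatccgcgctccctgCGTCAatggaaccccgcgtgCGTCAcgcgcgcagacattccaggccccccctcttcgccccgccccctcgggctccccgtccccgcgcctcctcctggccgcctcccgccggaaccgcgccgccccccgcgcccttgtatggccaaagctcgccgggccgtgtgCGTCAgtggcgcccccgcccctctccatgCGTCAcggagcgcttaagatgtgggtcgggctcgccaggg
Nr4a2: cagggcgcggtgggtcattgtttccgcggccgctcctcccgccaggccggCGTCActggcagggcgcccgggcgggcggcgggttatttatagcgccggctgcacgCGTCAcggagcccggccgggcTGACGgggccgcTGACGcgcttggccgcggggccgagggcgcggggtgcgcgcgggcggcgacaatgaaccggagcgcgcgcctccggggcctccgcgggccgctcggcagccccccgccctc
Nr4a3: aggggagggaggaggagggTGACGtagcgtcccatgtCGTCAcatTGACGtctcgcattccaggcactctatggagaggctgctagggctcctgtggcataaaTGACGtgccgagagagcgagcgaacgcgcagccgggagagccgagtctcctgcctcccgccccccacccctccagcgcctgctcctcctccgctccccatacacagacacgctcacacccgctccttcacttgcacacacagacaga
Egr2: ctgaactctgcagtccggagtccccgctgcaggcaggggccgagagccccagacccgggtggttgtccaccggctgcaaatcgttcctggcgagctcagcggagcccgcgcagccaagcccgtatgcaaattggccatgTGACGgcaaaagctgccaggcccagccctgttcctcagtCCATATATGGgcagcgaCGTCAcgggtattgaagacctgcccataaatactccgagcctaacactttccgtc

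Each of the 3 NR4A windows held 4 half-sites, a number reached or exceeded in 45 of 32851 windows of the same length (0.137%), while 17.8% held at least 1. The Egr2 window shown, like the 2 that overlap it, held 2 half-sites and 1 CArG box (found in 1.47% of all windows). Of the other 2 Egr2 windows, 1 held a CArG box, 3 NFAT cores and no half-site, and 1 held none of the motifs searched. The other motifs searched were the full CRE TGACGTCA (1.55% of all windows), the EGR site GCGTGGGCG (0.536%), the NBRE of NR4A proteins AAAGGTCA (1.34%), the NFAT core GGAAA (55.6%) and the TATA box TATAAA (12.4%). Of these, the Nr4a2 window held 1 NFAT core and 1 TATA box, and the Egr2 window shown held 1 NFAT core. Both strands were read, and a full CRE would count as 2 half-sites. The shares are over all windows, with no match for base composition. These matches describe letters only, and no binding was measured.

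The NR4A genes had 2 levels of transcript in these libraries, high in the naïve and the week 3 ta-non-activated cells and close to 0 in the other 3 libraries. Nr4a1, which encodes Nur77, stood at 872 CPM in the naïve library, 173 CPM in the ta-non-activated library of week 3, 6.08 CPM in the ta-non-activated library of week 2, and 3.98 and 12.6 CPM in the ta-activated libraries of weeks 2 and 3. The week 2 library labelled as freshly isolated thus lay between the cultured libraries of both weeks and far below the other freshly isolated libraries. Exact Poisson 95% intervals, which cover counting error only here and throughout, did not overlap between any pair of the 5 libraries for Nr4a1 (5.27 to 6.98 CPM in week 2 ta-non-activated, 3.48 to 4.53 CPM in week 2 ta-activated).

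Nr4a2, which encodes Nurr1, was at 490 CPM in the naïve library and 79.6 CPM in the ta-non-activated library of week 3. In the week 2 ta-non-activated library 8 UMIs in 5 of 1823 cells made 0.241 CPM, and the ta-activated libraries held 0.488 and 0.340 CPM (weeks 2 and 3). The intervals of the last 3 libraries overlapped, so their order is not resolved at this depth. Nr4a3, which encodes Nor1, followed with 506 CPM in the naïve library and 51.3 CPM in ta-non-activated cells of week 3, and with 0.271, 0.279 and 0.744 CPM in the week 2 ta-non-activated and the week 2 and week 3 ta-activated libraries. Only the last of these 3 low values lay above the intervals of the other two, and the week 2 pair could not be told apart.

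The EGR genes were lower and less alike. Egr1 (chr18:34859823-34864984, plus strand, overlapping no other annotated gene), a factor of growth and mitogen responses, had 128 CPM in the naïve library, 27.6 CPM in week 3 ta-non-activated, 1.23 CPM in week 2 ta-non-activated, and 4.88 and 8.94 CPM in the week 2 and week 3 ta-activated libraries, with no 2 intervals overlapping. It was the one member whose lowest value, apart from all others, was that of the week 2 ta-non-activated library. Egr3 had 74.3 CPM in the naïve and 8.30 CPM in the ta-non-activated library of week 3, then 2.65 CPM (week 2 ta-activated), 1.56 CPM (week 2 ta-non-activated) and 1.46 CPM (week 3 ta-activated), the last pair with overlapping intervals.

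Egr2 did not share this order. It was low in every library, at 5.73 CPM in week 3 ta-activated cells, 4.32 CPM in naïve cells, 1.84 CPM and 1.49 CPM in the week 2 and week 3 ta-non-activated cells, and 0.697 CPM in week 2 ta-activated cells. Its highest value was that of a cultured library, in which 177 of 3822 cells carried a UMI, and the intervals of the week 2 and week 3 ta-non-activated libraries overlapped. The 6 genes together made 2075 CPM in the naïve library, 341 CPM (329.5 to 353) in week 3 ta-non-activated, 11.2 CPM (10.1 to 12.4) in week 2 ta-non-activated, 13.0 CPM (12.1 to 13.9) in week 2 ta-activated and 29.8 CPM (28.5 to 31.2) in week 3 ta-activated.

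**Figure D1:**
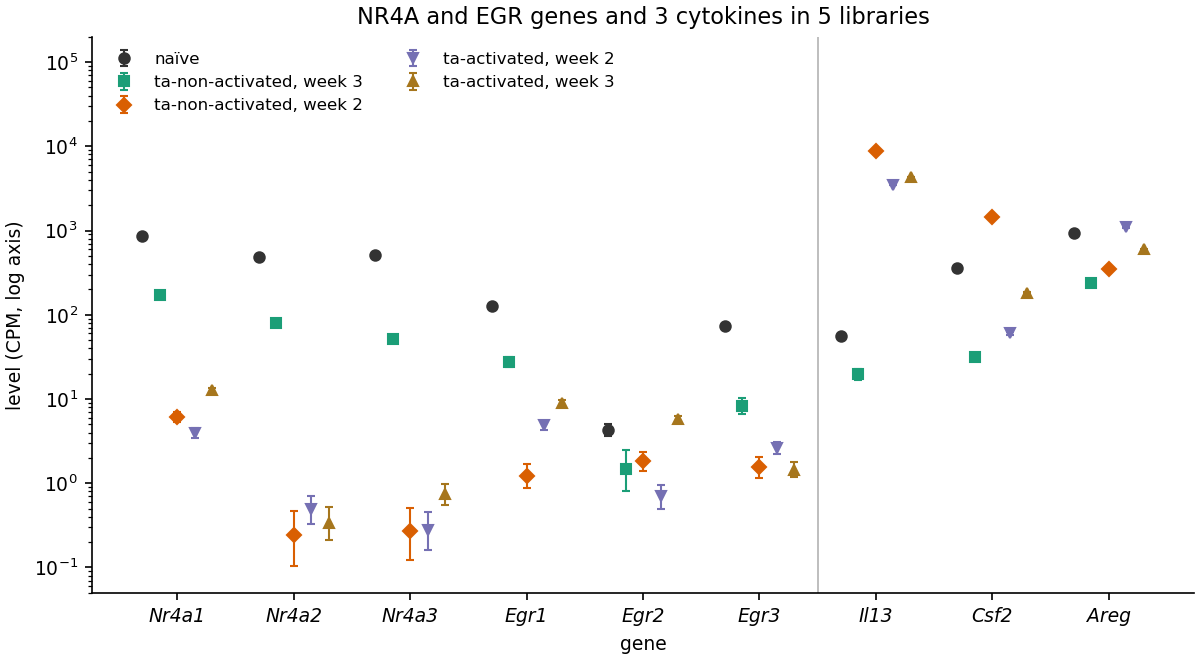
Level of each gene in CPM (log axis) in the 5 libraries, with the NR4A and EGR genes left of the grey line and 3 cytokines right of it. Points are single libraries and bars exact Poisson 95% intervals of the counts. Nr4a1, Nr4a2, Nr4a3, Egr1 and Egr3 are highest in the naïve library (74.3 to 872 CPM), next in week 3 ta-non-activated cells, and low in the other 3 libraries, while Il13 is highest in week 2 ta-non-activated cells (8861 CPM).

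Without the barcodes that carried at least 2 markers of another cell type, 757 cells of the week 3 ta-non-activated library remained, with a median of 2899 UMIs, and the 6 members summed to 721 CPM in place of 341 CPM. Nr4a1 was then at 378 CPM, Nr4a2 at 159 CPM, Nr4a3 at 117 CPM, Egr1 at 41.3 CPM and Egr3 at 23.5 CPM. The 795 cells with at least 2 T cell or thymocyte markers held 186 CPM of the members. The week 3 level of the members was thus higher in the 757 than in the 795 cells. The 757 cells still held 42.1 CPM of the T cell marker Cd3d and 57.9 CPM of Cd3e. The same set of naïve cells held 4.04 and 9.17 CPM. The 757 cells were also shallower than the 795 (median 2899 against 6099 UMIs), so a second marker could be missed. Leaving out barcodes of other types put the week 2 ta-non-activated library at 11.1 CPM (1788 cells).

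Il13 and Csf2 ran the other way in week 2, while Areg lay below the naïve and both ta-activated libraries. Il13, a defining cytokine of ILC2s, was at 8861 CPM in the ta-non-activated library of week 2 against 55.6 CPM in the naïve, 19.6 CPM in the week 3 ta-non-activated and 3501 and 4318 CPM in the week 2 and week 3 ta-activated libraries. It was spread over 1730 of 1823 cells there. Csf2, the granulocyte-macrophage colony-stimulating factor, was at 1432 CPM in ta-non-activated cells of week 2, above the naïve (356 CPM), the week 3 ta-non-activated (31.6 CPM) and both ta-activated libraries (60.0 and 183 CPM). Areg, the epidermal growth factor family member amphiregulin, was at 352 CPM in week 2 and 237 CPM in week 3 of the ta-non-activated libraries, against 945 CPM in the naïve and 1090 and 599 CPM in the week 2 and week 3 ta-activated libraries. Without the barcodes of other types, the week 3 ta-non-activated library had 70.6 CPM of Il13, 102 CPM of Csf2 and 724 CPM of Areg, so that its Areg lay above and no longer below that of week 2. The week 2 ta-non-activated library combined the highest Il13 and Csf2 with NR4A levels at or near those of the cultured libraries.

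Against the naïve library, 5 of the 6 members were at least 2-fold lower in the week 2 ta-non-activated library, beside 31.8% of all genes tested, and none was 2-fold higher (17.9% of genes). All fold values are ratios of CPM with 1 CPM added, which understates the change of low genes. Nr4a2 was 396-fold and Nr4a3 399-fold lower, Nr4a1 123-fold, Egr1 57.7-fold and Egr3 29.3-fold, and Egr2 1.88-fold. The median of the members was −6.40 on the log2 scale and that of all genes tested −0.26. The naïve matrix names another Cell Ranger version than the rest, and genes with long introns were more often higher in it: of the 3926 genes with at most 10000 intron bases, 13.7% were lower by the same measure. The introns of Egr1, Egr2 and Egr3 span 678, 3316 and 1006 bases, so this share is the one to set beside them, and the NR4A genes have 13115 to 35308. The part of the counting in these ratios was not tested.

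Against the week 3 ta-non-activated library, the same 5 members were at least 2-fold lower in week 2, beside 18.7% of all genes and 18.8% of those with short introns, and none was 2-fold higher (10.4%). Nr4a2 was 65.0-fold lower, Nr4a3 41.2-fold, Nr4a1 24.6-fold, Egr1 12.8-fold and Egr3 3.63-fold, with a median over the 6 members of −4.15 (log2) against −0.12 for all genes. Both of these libraries name Cell Ranger 3.0.2, and Egr2 differed by 0.19 on the log2 scale. Without barcodes of other cell types the differences were larger: 128-fold for Nr4a2, 96.6-fold for Nr4a3, 53.8-fold for Nr4a1, 18.6-fold for Egr1 and 9.39-fold for Egr3 lower, and Egr2 had a log2 ratio of −0.28 in place of 0.19, with 18.4% of all genes at least 2-fold lower. The 5 genes were at least 2-fold under both other uncultured libraries at once, as were 11.1% of genes tested and 7.82% of those with short introns. The same 5 were highest in the naïve library, as were 34.4% of all genes and 12.9% of those with short introns, and Egr2 was highest in week 3 ta-activated cells, as were 16.0% of genes.

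Against the week 2 ta-activated library, 1 of the 6 members was at least 2-fold lower in week 2 ta-non-activated cells (Egr1, 2.63-fold), beside 15.8% of all genes, and none was at least 2-fold higher, beside 7.76%. Nr4a2 and Nr4a3 were under 1 CPM in both libraries, so that with 1 CPM added neither could reach 2-fold, and these counts speak for the other 4 members only. On the log2 scale 5 of the 6 members were nearer to the week 2 ta-activated than to the week 3 ta-non-activated library, which held for 54.4% of genes.

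The other pairs of libraries place this difference. From naïve to week 3 ta-non-activated cells all 6 members were at least 2-fold lower, beside 26.6% of all genes and 9.55% of those with short introns, by 2.14-fold for Egr2, 4.51-fold for Egr1 and 5.02 to 9.69-fold for the other 4. From week 3 ta-non-activated to week 3 ta-activated cells 5 members were at least 2-fold lower (16.0% of genes), by 2.87-fold for Egr1, 3.79-fold for Egr3, 12.8-fold for Nr4a1, 30.0-fold for Nr4a3 and 60.2-fold for Nr4a2, and Egr2 was 2.70-fold higher (18.4% of genes). Between the ta-activated libraries, Nr4a1 (2.74-fold) and Egr2 (3.96-fold) were higher in week 3, beside 2.75% of genes, and no member was 2-fold lower, beside 2.78%. Nr4a2 and Nr4a3 could not reach 2-fold in this last pair either. Without barcodes of other types, 5 members were still at least 2-fold lower in week 3 ta-non-activated than in naïve cells, Nr4a1 by 2.44-fold, Nr4a2 by 3.23-fold, Nr4a3 by 4.57-fold, Egr1 by 3.03-fold and Egr3 by 3.30-fold, and Egr2 by 1.65-fold. The change with culture in week 3 was then 28.8-fold for Nr4a1, 120.0-fold for Nr4a2, 71.0-fold for Nr4a3, 4.32-fold for Egr1 and 9.97-fold for Egr3 lower, and Egr2 was 1.98-fold higher.

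**Figure D2:**
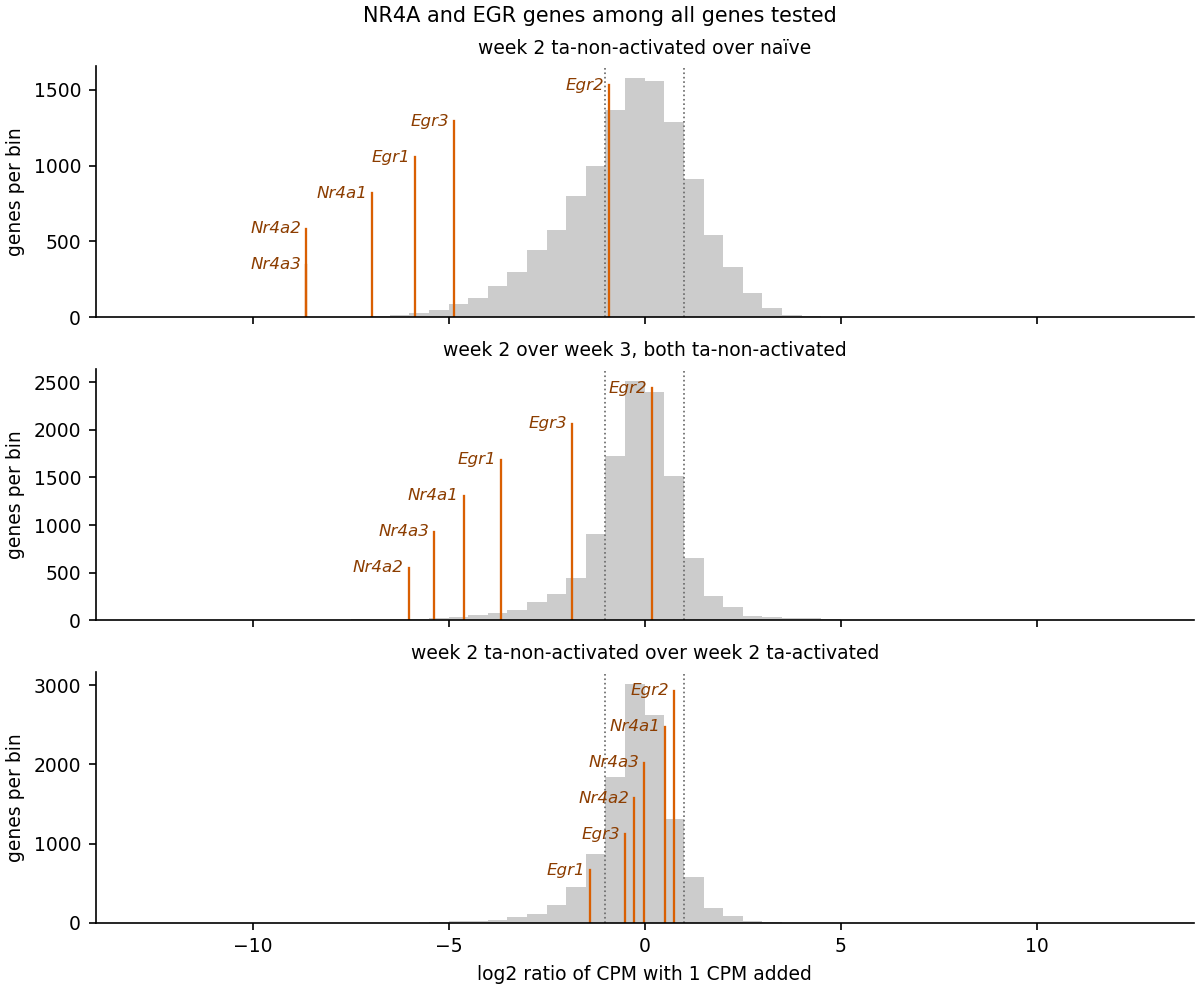
Distribution of the log2 ratio of CPM (1 CPM added) over the 11503 genes tested, in bins of equal width, with the NR4A and EGR genes as orange lines and 2-fold as dotted lines. Line heights only separate the names. In the upper 2 panels all members but Egr2 lie left of the dotted line, and in the lowest panel, against the week 2 ta-activated library, only Egr1 does.

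The study's own grouping merges the weeks, and edgeR's quasi-likelihood test of 2 ta-activated against 2 ta-non-activated libraries called none of the 6 members, and none of 12643 genes in either direction (0.0% called), at a Benjamini-Hochberg adjusted p of 0.05. At an unadjusted p under 0.05, 1178 genes were higher and 942 lower, and DESeq2 called 574 higher (4.54%) and 463 lower (3.66%). Nr4a2 averaged 0.414 ± 0.105 CPM (SD, n = 2) in ta-activated and 39.9 ± 56.1 CPM (SD, n = 2) in ta-non-activated libraries, a log2 fold change of −6.53 ± 2.47 (SE) with an edgeR adjusted p of 0.297. Nr4a3 had a log2 fold change of −5.61 ± 2.26 (SE, edgeR adjusted p = 0.311) and Nr4a1 −3.42 ± 1.55 (SE, edgeR adjusted p = 0.343). The spread between the weeks of the ta-non-activated group was larger than its mean for each NR4A gene.

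The EGR genes were further from the threshold, with log2 fold changes of −1.03 ± 1.29 (SE) for Egr1, 0.79 ± 1.04 for Egr2 and −1.24 ± 0.86 for Egr3 (edgeR adjusted p = 0.70, 0.718 and 0.492). With DESeq2 the adjusted p was 0.00142 for Nr4a2, 0.00644 for Nr4a3 and 0.0533 for Nr4a1, so that 2 of the 6 members passed. Without the week 2 ta-non-activated library, edgeR called 817 genes higher and 829 lower and Nr4a1, Nr4a2 and Nr4a3 passed (edgeR adjusted p = 0.0422, 0.0255 and 0.0292; log2 fold changes −4.33, −7.51 and −6.58), with the lone week 3 library taken to vary like the other group. Without the week 3 ta-non-activated library, 233 genes were called higher and 280 lower, and the same genes had log2 fold changes of 0.19, 0.54 and 0.66 (edgeR adjusted p = 0.876, 0.711 and 0.684). The direction of the NR4A difference between states therefore rested on 1 library.

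Most other early response genes were likewise low in week 2 ta-non-activated cells. Of 25 listed, 20 were at least 2-fold lower in week 2 ta-non-activated than in naïve cells and 18 lower than in week 3 ta-non-activated cells (2 and 1 were higher), beside 31.8% and 18.7% of all genes, and 18 lay under both, beside 11.1%. With barcodes of other types left out, 20 were lower than in week 3 ta-non-activated cells and 20 lay under both, beside 18.4% and 14.1% of genes. Junb, a subunit of the AP-1 factor, was at 3039 CPM in naïve, 2769 CPM in week 3 ta-non-activated, 590 CPM in week 2 ta-non-activated and 498 and 676 CPM in the week 2 and week 3 ta-activated libraries. Jund, its relative, was at 1450, 1288 and 393 CPM in the naïve, week 3 and week 2 uncultured libraries, and at 1006 and 839 CPM after culture. Zfp36l2, which promotes the decay of short-lived messenger RNAs, was at 1341 CPM (naïve), 708 CPM (week 3 ta-non-activated) and 59.4 CPM (week 2 ta-non-activated), the last below the cultured values (124 and 127 CPM). Gadd45b, a stress-response gene, was at 1216, 598 and 305 CPM in naïve, week 3 and week 2 uncultured cells and at 128 and 320 CPM in cultured cells.

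Feedback genes of the MAP kinase pathway, which lies upstream of EGR transcription, were lower mainly against week 3. Of 10 listed, 5 were at least 2-fold lower in week 2 ta-non-activated than in naïve cells, 7 than in week 3 ta-non-activated cells, 2 than in week 2 ta-activated cells, and none was higher in any of the 3. All genes had 31.8%, 18.7% and 15.8% lower in these pairs, and without barcodes of other types 8 of 10 were lower than in week 3. Dusp1, a phosphatase that inactivates MAP kinases and is itself an early response gene, was at 493 CPM in naïve, 341 CPM in week 3 ta-non-activated, 7.40 CPM in week 2 ta-non-activated and 12.0 and 16.5 CPM in ta-activated libraries. Dusp5 was at 277, 222 and 9.39 CPM in the 3 uncultured libraries (naïve, week 3, week 2) and at 21.4 and 10.7 CPM in the cultured ones. Dusp6 and Spry1, further inhibitors of the pathway, stayed within 2-fold of naïve and of week 3 cells (17.8 and 34.6 CPM in ta-non-activated cells of week 2).

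Genes of the NF-κB pathway, which IL-33 engages, were mixed. Of 12 listed, 6 were at least 2-fold lower and 2 higher than in naïve cells, 3 lower and 4 higher than in week 3 ta-non-activated cells, and none lower and 5 higher than in week 2 ta-activated cells. Over all genes 31.8%, 18.7% and 15.8% were lower and 17.9%, 10.4% and 7.76% higher in the same pairs. Against week 3 the count turned with the barcodes used, to 6 lower and 2 higher without other cell types. The inhibitor Nfkbia was at 699 CPM in week 2 ta-non-activated, 523 CPM in week 3 ta-non-activated, 1494 CPM in naïve and 313 and 862 CPM in cultured cells. Tnfaip3, which encodes the inhibitor A20, was at 32.6 CPM in week 2 against 248 CPM in week 3 ta-non-activated and 1205 CPM in naïve cells. Nfkbiz was at 26.1, 82.8 and 758 CPM in the same order, and Nfkb1, a subunit of the factor with long introns, at 229, 176 and 3310 CPM.

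Of 12 genes of calcium and NFAT signalling, 9 were at least 2-fold lower in week 2 ta-non-activated than in naïve cells, 1 than in week 3 and 2 than in week 2 ta-activated cells, beside 31.8%, 18.7% and 15.8% of all genes. With other cell types left out, 2 were lower than in week 3. Genes with long introns were more often higher in the naïve matrix, and of those with at most 10000 intron bases 13.7% were lower than in naïve cells. The part of the counting in the 9 of 12 against naïve cells was not tested. Ppp3ca (a catalytic subunit of calcineurin, which activates NFAT), the calmodulin-dependent kinase Camk4, the calcium sensor Stim1 and the channel Orai1 were at 61.8, 71.0, 30.5 and 47.4 CPM in week 2 and at 56.4, 42.6, 32.9 and 68.5 CPM in ta-non-activated cells of week 3. Among 11 tested partners and target genes of the members, 5 were lower and 3 higher in week 2 than in week 3 ta-non-activated cells (18.7% and 10.4% of all genes), and without barcodes of other types 4 of 10 were lower and 1 higher. Tox, a nuclear factor linked to chronic stimulation, was at 15.3 and 57.2 CPM, and Ikzf2 (Helios) at 39.7 and 210.0 CPM in weeks 2 and 3. Nab1, a corepressor that binds EGR proteins, was at 40.8 and 28.5 CPM, and the inhibitor of E proteins Id2 at 517 and 185 CPM. The week 3 levels of these genes are over all kept cells, 49.7% of which carried T cell or thymocyte markers. The levels thus do not compare ILC2s alone.

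Genes that stimulated lymphocytes put out were split. Of 17 tested, 8 were at least 2-fold higher and 7 lower in week 2 than in week 3 ta-non-activated cells, and 4 higher and 9 lower than in naïve cells. All genes had 10.4% higher and 18.7% lower against week 3, and 17.9% and 31.8% against naïve cells. With such barcodes left out, 5 were higher and 7 lower than in week 3. Il9 was at 12576 CPM in ta-non-activated cells of week 2, at 0.0926 CPM in the naïve library, listed with no UMI in the week 3 ta-non-activated library, and at 115 and 342 CPM in ta-activated cells. Il5, the eosinophil growth factor, was at 1224 CPM in week 2 ta-non-activated against 170 CPM in naïve, 49.0 CPM in week 3 and 1321 and 928 CPM in cultured cells. Cd69, an early surface marker of activation, was by contrast lowest there, at 32.4 CPM against 700 CPM in naïve, 212 CPM in week 3 and 145 and 188 CPM in cultured cells. Il2ra was at 321 CPM in week 2 and 136 CPM in ta-non-activated cells of week 3.

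Stress and reference genes were measured beside these. Of 12 heat shock genes, 5 were at least 2-fold higher and 4 lower in week 2 ta-non-activated than in naïve cells, none higher and 4 lower than in week 3, and 8 higher and 1 lower than in week 2 ta-activated cells. Over all genes 17.9%, 10.4% and 7.76% were higher and 31.8%, 18.7% and 15.8% lower in the same pairs. Against week 3 the heat shock count also turned, to 4 higher and 4 lower without barcodes of other types. All genes then had 14.2% higher and 18.4% lower. Hsp90ab1 was at 4308 CPM, Hspa8 at 2919 CPM, Hspe1 at 1274 CPM and Hsp90aa1 at 1130 CPM in ta-non-activated cells of week 2, against 3382, 3225, 1189 and 1803 CPM in week 3. Of 10 housekeeping genes, none differed 2-fold between week 2 and week 3 ta-non-activated cells, with a median log2 ratio of 0.01 (Actb 5628 and 4625 CPM, Eef1a1 5737 and 6329 CPM). The part that heat shock or tissue handling has in the levels of the early response genes was not tested. None of the lists held a gene that edgeR called between the states, and at an unadjusted p under 0.05 edgeR had 5 of 25 other early response genes, 2 of 10 feedback genes and 8 of 12 heat shock genes lower in ta-activated libraries, beside 7.45% of all genes.

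**Figure D3:**
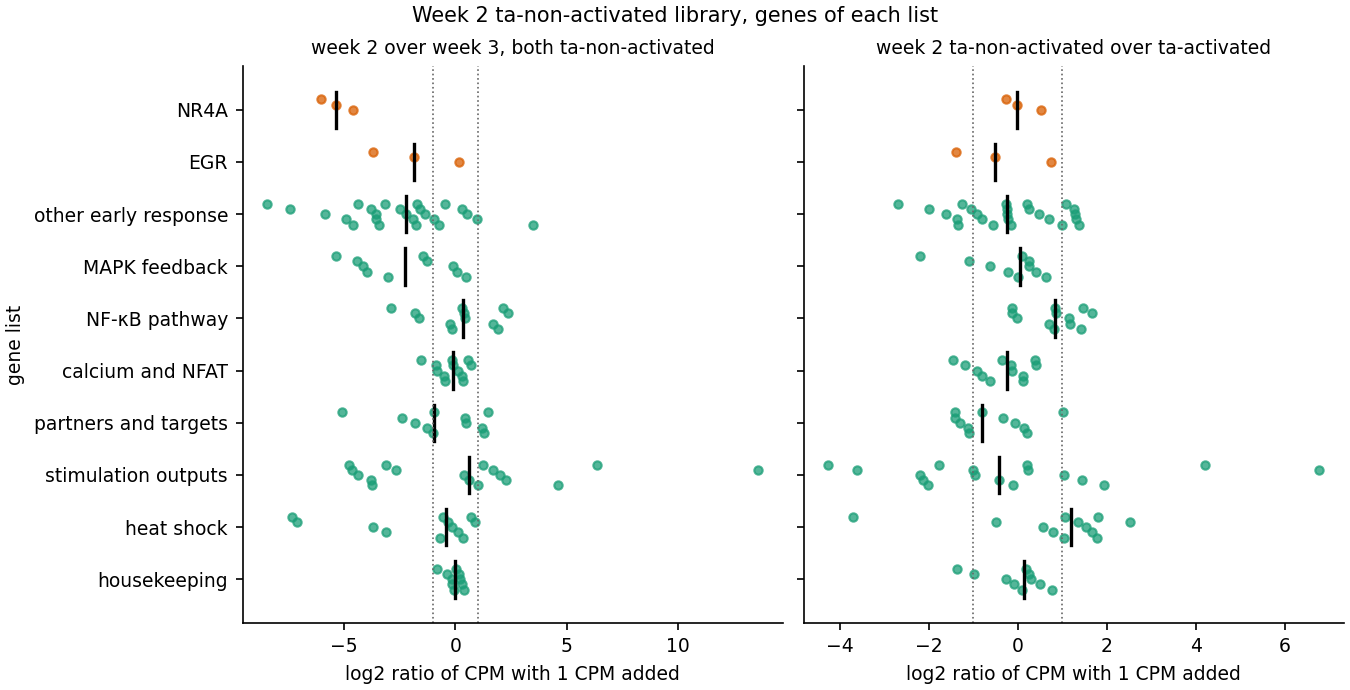
Log2 ratio of CPM (1 CPM added) for every tested gene of each list, week 2 over week 3 ta-non-activated (left) and week 2 ta-non-activated over week 2 ta-activated (right). Each point is a gene, the black bar the median of its list and the dotted lines 2-fold. The NR4A, other early response and MAPK feedback lists have medians of −5.36, −2.23 and −2.24 on the left, and of −0.01, −0.25 and 0.05 on the right, where Nr4a2 and Nr4a3 are under 1 CPM in both libraries and the added 1 CPM holds their ratios near 0.

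In single cells thinned to 2000 UMIs, 75.6% of 6147 naïve cells (Clopper-Pearson 95% interval 74.5% to 76.7%) and 42.9% of 1495 week 3 ta-non-activated cells (40.4% to 45.4%) carried a UMI of at least 1 member. The share was 2.16% of 1809 week 2 ta-non-activated cells (1.54% to 2.94%), 1.52% of 2822 week 2 ta-activated cells (1.11% to 2.05%) and 4.15% of 3714 week 3 ta-activated cells (3.53% to 4.84%). At least 3 members were found together in 23.9% of naïve and 3.01% of week 3 ta-non-activated cells, and in 0 of 1809 week 2 ta-non-activated cells, which allows a share of up to 0.166% of cells with such UMIs at this depth and sets no limit on cells that express the genes. Without barcodes of other types the share with at least 1 member was 55.1% of 662 week 3 ta-non-activated cells (51.3% to 59.0%) and 2.03% of 1774 week 2 ta-non-activated cells (1.43% to 2.80%). No cell type known to lack these genes was available as a measure of free RNA. The naïve barcodes with endothelial markers (94 cells) held 2110 CPM of the members. They also carried ILC2 transcripts (567 CPM of Gata3 and 667 CPM of Il1rl1), so they do not stand for another cell type. The 396 naïve barcodes with T cell or thymocyte markers held 1144 CPM of the members and 124 CPM of Il1rl1. The 128 with markers of natural killer cells or type 1 innate lymphoid cells held 1376 and 65.6 CPM. Naïve barcodes with few foreign markers held 2187 and 851 CPM. The part of free RNA in these levels was not tested.

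Nr4a1 was the most often found, in 54.2% of naïve, 26.6% of week 3 ta-non-activated and 1.11% of week 2 ta-non-activated thinned cells (8.50% unthinned in the last). Nr4a2 and Nr4a3 were found in 38.7% and 39.2% of naïve cells, in 13.2% and 11.3% of week 3 ta-non-activated cells, and in 1 and 0 of 1809 week 2 ta-non-activated cells. Within the naïve library the NR4A genes were found together: 52.9% of cells with Nr4a1 and 53.1% of those with Nr4a2 also held Nr4a3, against 39.2% of all cells. Egr1 was found in 19.0% of cells with Nr4a1 against 13.2% of all naïve cells, and Egr3 in 21.9% of cells with Egr1 against 10.4%.

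Across cells of each library, the summed members were correlated with the cytokines by Spearman's coefficient on thinned counts, as a description in which the cells share a library and free RNA. In the naïve library (6147 cells) the coefficient was 0.42 with Areg, 0.20 with Csf2 and 0.17 with Il13. In the week 3 ta-non-activated library (1495 cells) it was 0.34, 0.19 and 0.15 in that order, and over its 662 cells left without barcodes of other types 0.43, 0.18 and 0.15. That library mixes cells that differ in both quantities: its 795 cells with T cell or thymocyte markers had 186 CPM of the members and 41.0 CPM of Areg, and its 757 cells with few foreign markers 721 and 724 CPM. With cells thinned to 5000 UMIs, which leaves out shallower cells, its coefficient with Areg was 0.13 and with Csf2 0.11. In the week 2 ta-non-activated library (1809 cells) it was 0.07, 0.08 and 0.09, and in the ta-activated libraries it lay from 0.05 to 0.10. Areg had the highest coefficient of the cytokines in naïve and week 3 cells. It stood there above 99.9% and 99.7% of the genes found in at least 5% of cells. Areg was also the most often found after thinning, in 42.2% of naïve cells against 21.5% for Csf2 and 5.03% for Il13. In week 3 ta-non-activated cells these shares were 16.5%, 4.75% and 1.87%, and sparse counts hold a coefficient down. The order of the coefficients thus does not rank how closely the cytokines went with the members. In week 2 ta-non-activated cells Il13 stood above 99.8% of such genes, at a coefficient that is weak in sparse counts.

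Grouped by the number of members found in a cell, naïve cells with none, 1, 2 and 3 or more had 215, 483, 1104 and 1836 CPM of Areg. In week 3 ta-non-activated cells the same groups had 106, 498, 1142 and 1700 CPM of Areg. Cells with T cell or thymocyte markers held less of both the members and Areg, and without barcodes of other types the week 3 groups (297, 215, 113 and 37 cells) had 192, 921, 1438 and 1851 CPM of Areg. Csf2 went from 109 to 663 CPM in naïve cells and from 18.7 to 289 CPM in ta-non-activated cells of week 3 between none and 3 or more members, and Il13 from 11.7 to 127 CPM in naïve cells.

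The relation could hardly be measured in week 2. After thinning, its 1809 cells held 41 UMIs of the 6 members in 39 cells, and 38 of these cells held 1 member. Those 38 cells had 18211 CPM of Il13 (interval 17264 to 19196) against 8645 CPM in the 1770 cells with none, and 3658 CPM of Csf2 (3241 to 4114) against 1447 CPM. The 1770 cells with none made up nearly all of the 1809, so their Il13 nearly restates that of the whole library (8861 CPM). Before thinning, 8.50% of its cells carried an Nr4a1 UMI, so this group does not stand for cells that lack the members. Of the 1770 cells, 87.7% had an Il13 UMI after thinning.

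**Figure D4:**
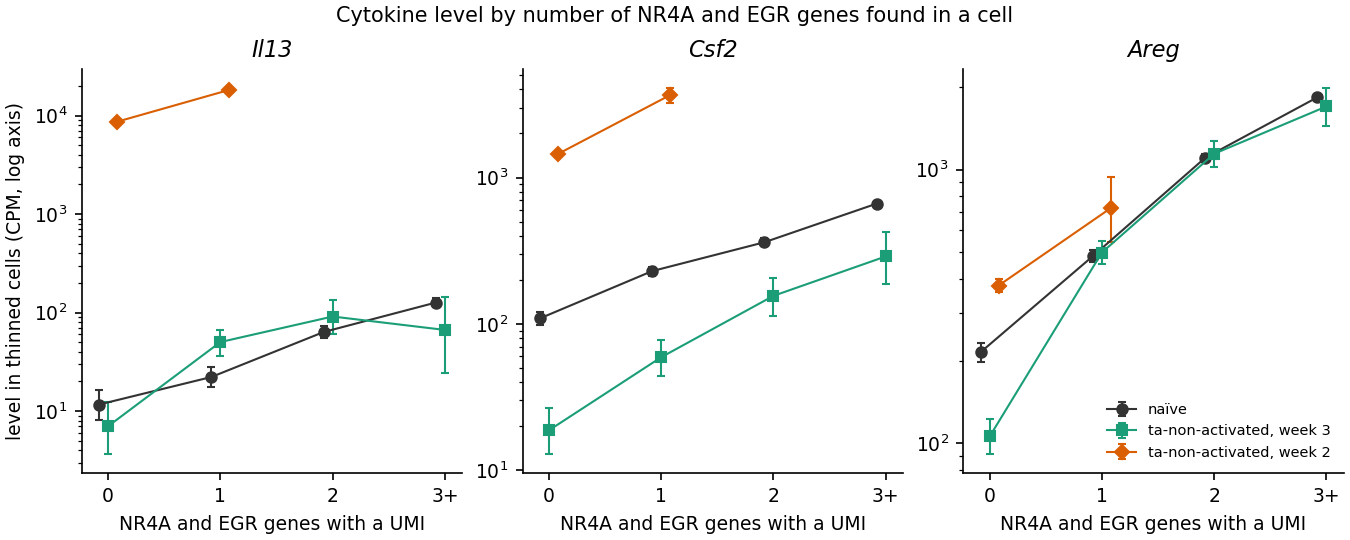
Level of Il13, Csf2 and Areg (CPM in cells thinned to 2000 UMIs, log axis) against the number of NR4A and EGR genes with a UMI in a cell, in the 3 uncultured libraries. Points pool the cells of a group and bars are exact Poisson 95% intervals, and the single week 2 cell with 2 members is not drawn. Areg goes from 215 to 1836 CPM in naïve and from 106 to 1700 CPM in week 3 cells. Il13 in week 2 cells without a member UMI after thinning (8645 CPM) exceeds every naïve and week 3 group. That week 2 group is nearly the whole library.

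The genes most like the summed members across cells named the same neighbours in naïve and week 3 ta-non-activated cells: Nfkbia (coefficients 0.48 and 0.45), Gadd45b (0.43 and 0.37), Junb (0.40 and 0.39), Tnfaip3 (0.43 and 0.35), Rora (0.42 and 0.38) and Pim1 (0.39 and 0.35) were among the 10 highest of each. These were chosen after their values were seen. The week 3 coefficients rest on all 1495 thinned cells. In that library cells with T cell or thymocyte markers held 186 CPM of the members, and cells with few foreign markers 721 CPM. A gene that separates these cells would thus also be correlated, and Rora is itself on the list of ILC2 markers. No coefficients of these genes are given without barcodes of other types. In week 2 ta-non-activated cells the 10 highest were Cd69, Wdr89, Furin, Nfkb1, Clec2d, Irgm1, Il13, Nfkbia, Ffar2 and Il6, with coefficients of only 0.11 down to 0.09. A second random thinning of the same cells kept 1 of these 10 (Il13), against 8 of 10 in naïve and 8 of 10 in week 3 ta-non-activated cells, so that the week 2 list is set by the few UMIs drawn. Of the shared neighbours named above, Nfkbia, Gadd45b and Rora were kept in both libraries. Pim1 was lost from the naïve list, and Junb and Tnfaip3 from the week 3 list.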

How the data were processed

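Single-cell RNA was measured in 5 libraries. Per the labels and matrix headers, the authors deposited UMI counts per gene and barcode from Cell Ranger (6.0.0 named in the naïve matrix, 3.0.2 in the other 4 and in the submitters' processing notes, with build GRCm38), without normalization. Annotation and intron settings are not given in the sources used here. GENCODE M21 held 27639 of 27726 gene identifiers (99.7%). The filter kept barcodes in which 200 or more genes were detected and mitochondrial genes made less than 5% of UMIs, and doublets were not called. Levels are UMIs per 1000000 (CPM), summed over the cells of a library. The replicated test was edgeR 4.0.16 (filterByExpr, TMM, quasi-likelihood F test, Benjamini-Hochberg over all genes, threshold 0.05) in R 4.3.3, with standard errors taken as the log2 fold change over the square root of F, and it was tested on simulated data. The labels do not say that libraries came from separate mice, so p-values measure the spread between these libraries, and the week is the replicate. DESeq2 1.42.0, another normalization and filters, a week block, all 5 libraries, other barcode sets and each library left out were alternatives. Per-cell values used cells with at least 2000 UMIs, thinned at random with a seed per barcode. Python 3.11.15, numpy 2.4.6, scipy 1.17.1, pandas 2.3.3 and matplotlib 3.10.9 were used.

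The members and gene lists were chosen with earlier results of these data known, and gene names follow a rule: the members, the 3 cytokines, the 4 genes of each list with the most UMIs, and the 10 genes most correlated with the members in week 2 ta-non-activated cells. Rora and Pim1 fall outside it and were chosen after their values were seen. The 1 CPM filter on mean level, the limit of 10000 intron bases and the comparison of nearness to 2 libraries were chosen after the data had been seen. Intervals have a level of 95%, and the upper limit for a zero count was taken from 3 counts.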

Additional observations from a re-analysis of the deposited data

Results flagged for a closer look

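For 5 genes the change with culture ran one way in week 2 and the other way in week 3, with Poisson intervals that did not overlap in either week. Each side is 1 library, so the difference between the weeks was not tested. Egr1 was higher after culture in week 2 (log2 ratio 1.40) and lower in week 3 (−1.52), a difference of −2.92. Egr3 had ratios of 0.51 and −1.92, a difference of −2.43, and Egr2 the opposite order, −0.74 and 1.43, a difference of 2.17. Il13 had −1.34 in week 2 and 7.71 in week 3, a difference of 9.05, and Csf2 −4.55 and 2.50, a difference of 7.05. In each case the week 3 ta-non-activated library, of which 49.7% of cells carried T cell or thymocyte markers, enters the difference. Without barcodes of other types the intervals overlapped for Egr2 in week 3 (0.85 to 5.04 CPM before and 4.99 to 6.20 CPM after culture) and for Egr3 in week 2 (1.20 to 2.11 and 1.89 to 2.75 CPM), so that for these genes the opposite direction did not hold past counting error. For Egr1, Il13 and Csf2 it did, with week 3 ratios of −2.11, 5.91 and 0.84.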

How the results depend on the processing

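The count of members at least 2-fold lower than in naïve and in week 3 ta-non-activated cells moved by less than 1.5 times under all 8 alternatives. Against week 2 ta-activated cells, 1 member was higher with 0.1 CPM added or with means over cells, and 0 were lower with 10 CPM added or without proliferating barcodes. TMM scaling moved the median log2 ratio of all genes to naïve from −0.26 to 0.00. Its ratios were −8.42 for Nr4a2 and −4.60 for Egr3.

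edgeR called 0 genes with other size factors, all genes, all 5 libraries, all barcodes, no barcodes of other types, or the replicate block for the week. The same-week deviations correlated at −0.05 across genes. This value cannot decide whether the libraries of a week are paired. In week 3 ta-non-activated 49.7% of cells carried T cell or thymocyte markers, and the ta-activated libraries differed little (Spearman correlation 0.967). With the block Egr1 reversed to 0.0496 and Il13 to 3.10 (log2). DESeq2 called 574 higher and 463 lower. Leaving out 1 library gave 0 to 817 higher and 0 to 829 lower. The log2 fold changes ranged from −4.40 to 0.19 (Nr4a1), −7.51 to 0.54 (Nr4a2), −6.58 to 0.66 (Nr4a3), −1.94 to 2.23 (Egr1) and −1.94 to 0.15 (Egr3), all reversed without week 3 ta-non-activated. They ranged from −1.33 to 1.69 for Egr2, reversed without week 3 ta-activated, and from −1.43 to 7.70 (Il13) and −3.82 to 1.99 (Csf2), reversed without week 2 ta-non-activated. The cause was not tested.

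Without thinning, the week 2 ta-non-activated coefficients were 0.19 (Il13), 0.17 (Csf2) and 0.11 (Areg). Summed members moved to 2187 CPM (naïve) and 721 CPM (week 3 ta-non-activated) without barcodes of other types, to 442 CPM in the latter without proliferating barcodes, and to 12.0 CPM in week 2 ta-activated at a 10% mitochondrial limit. The barcode settings for summed levels, ratios outside the counts, lists, cell shares and cytokine groups, and the second thinning, were chosen after seeing the data.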

Other observations

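Members were also measured in barcodes with at least 2 of 8 proliferation markers. Without thinning, these made up 32.9% and 38.6% of ta-activated cells (weeks 3 and 2), against 0.955% of the shallower naïve cells. In week 3 ta-non-activated cells the 219 barcodes of this kind had 159 CPM of the summed members against 442 CPM in the other 1382, and in naïve cells the 61 such barcodes had 1508 CPM against 2088 CPM. In week 2 ta-non-activated cells the values were 11.3 CPM in 290 and 11.2 CPM in 1533 barcodes, and in week 2 ta-activated cells 13.5 CPM in 1118 and 12.2 CPM in 1777. Egr1 stood at 2.57 CPM in the first and 0.741 CPM in the second set of week 2 ta-non-activated cells, and at 6.58 and 2.43 CPM in those of week 2 ta-activated cells. Cell-to-cell spread was wide: the highest count of Egr1 in a cell was 55 UMIs in the week 3 ta-activated library, where 3.22% of cells held any, and 47 UMIs in the naïve library.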
